A study of Mus musculus with 2 samples.

Results

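Neutrophils are drawn into tissue by a small family of CXC chemokines, and 7 genes of that system were followed here: the ligands Cxcl1, Cxcl2 and Cxcl3, their shared receptor Cxcr2, the CXC ligands Cxcl16 and Pf4, and Csf3r, the receptor of granulocyte colony-stimulating factor (G-CSF). They were taken as a named list of 7 of the 55357 genes in the matrices, not by any measured value, and all 7 were present. The data are UMI counts (UMI, unique molecular identifier, 1 per captured RNA molecule) from droplet-based 3' single-cell RNA sequencing of CD45+ cells. These were sorted from digested subcutaneous tumours of MC38, a mouse colon adenocarcinoma line, grown in C57BL/6 mice. 1 library came from UEIS KI mice and 1 from UEIS LSL mice. The series title calls UEIS a micropeptide that lowers cGAS-STING and type I interferon signalling, and the labels do not expand KI or LSL, state an age or say whether mice were pooled. With 1 library per group no difference could be tested, and intervals are exact 95% intervals for counting error only, so differences among mice are outside them.

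In mouse, Cxcl1, Cxcl2 and Cxcl3 bind Cxcr2, a G protein-coupled receptor of neutrophils, and move these cells out of the bone marrow and along a gradient into inflamed tissue or a tumour. Macrophages, fibroblasts and neutrophils themselves can make these ligands, mostly after NF-kappaB is activated by cytokines such as interleukin 1 or by microbial products. G-CSF, read through Csf3r, drives the making and survival of neutrophils. Cxcl16 and Pf4 differ from these: Cxcl16 is a membrane-bound or shed ligand of Cxcr6 on T cells, and Pf4 (platelet factor 4) is stored in platelet granules and is also expressed by macrophages.

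5 of the 7 genes encode ligands, and 4 of these lie side by side. On GRCm38, Cxcl1 is at chr5:90891241-90893115, Cxcl2 at chr5:90903871-90905938, Cxcl3 at chr5:90786103-90789600 and Pf4 at chr5:90772435-90773383, all on the plus strand. The stretch from the start of Pf4 to the end of Cxcl2 covers 133.5 kb and also holds Cxcl15, while Cxcl5 and Ppbp lie just before it. Cxcl16 is apart from this cluster at chr11:70453983-70459984 on the minus strand, Cxcr2 at chr1:74153989-74161246 and Csf3r at chr4:126024550-126044440. Cxcl16 overlaps Zmynd15 on the other strand. Zmynd15 had 1568 UMIs in UEIS KI and 2261 in UEIS LSL, against 25340 and 27884 UMIs of Cxcl16. Whether reads were counted by strand is not given in the sources used here, so reads of these genes cannot be told apart.

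Promoters of the 4 clustered ligands are printed here because they show what Cxcl1, Cxcl2 and Cxcl3 share and Pf4 lacks: the capitals mark a match to the NF-kappaB consensus. Each is 300 bases from RefSeq on GRCm38.p6, plus strand, from 250 bases before to 50 after the start: chr5:90890995-90891294, chr5:90903649-90903948, chr5:90785851-90786150 and chr5:90772185-90772484 for Cxcl1, Cxcl2, Cxcl3 and Pf4.
Cxcl1: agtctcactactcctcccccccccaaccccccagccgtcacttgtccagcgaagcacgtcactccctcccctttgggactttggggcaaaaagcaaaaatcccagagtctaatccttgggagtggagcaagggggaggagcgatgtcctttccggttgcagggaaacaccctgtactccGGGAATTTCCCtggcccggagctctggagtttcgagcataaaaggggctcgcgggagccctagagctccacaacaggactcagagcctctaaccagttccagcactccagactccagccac
Cxcl2: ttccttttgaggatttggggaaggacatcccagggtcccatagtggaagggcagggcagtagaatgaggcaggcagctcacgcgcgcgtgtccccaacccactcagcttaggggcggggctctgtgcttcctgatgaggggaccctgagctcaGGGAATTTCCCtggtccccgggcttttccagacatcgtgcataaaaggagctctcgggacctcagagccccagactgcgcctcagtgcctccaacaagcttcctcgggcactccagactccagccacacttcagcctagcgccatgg
Cxcl3: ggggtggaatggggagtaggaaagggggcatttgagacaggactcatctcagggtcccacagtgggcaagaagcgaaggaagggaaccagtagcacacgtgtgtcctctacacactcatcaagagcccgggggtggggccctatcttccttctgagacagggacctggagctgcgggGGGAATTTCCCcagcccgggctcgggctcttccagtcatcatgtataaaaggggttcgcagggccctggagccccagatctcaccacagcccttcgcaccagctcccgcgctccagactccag
Pf4: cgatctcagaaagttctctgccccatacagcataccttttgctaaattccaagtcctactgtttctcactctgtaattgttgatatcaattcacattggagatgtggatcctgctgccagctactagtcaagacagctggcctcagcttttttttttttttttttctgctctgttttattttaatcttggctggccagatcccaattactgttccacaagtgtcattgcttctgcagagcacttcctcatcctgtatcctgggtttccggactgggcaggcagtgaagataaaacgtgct

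The same letters, GGGAATTTCCC, stood in the Cxcl1, Cxcl2 and Cxcl3 promoters, with their first base 71, 97 and 73 bases before the start. On both strands these letters were found in 11 of 27025 promoters of the same length (0.0407%), and any match to the NF-kappaB consensus in 1175 (4.35%). No match was found in the windows of Pf4, Cxcr2 or Csf3r, and 6 of the 7 genes had a promoter in the table. AP-1 letters (TGANTCA, both strands) were in none of the 6 windows, against 7.93% of all promoters. The PU.1 core GAGGAA, searched on both strands, was in those of Cxcl2, Pf4, Cxcr2 and Csf3r, against 28.3% of all promoters. A match is only a description of the letters.

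The libraries held 9734 barcodes and 99404988 UMIs in UEIS KI and 9527 barcodes and 92764697 UMIs in UEIS LSL, and 34 barcodes occurred in both. Of these, 8685 and 8646 cells passed the quality limits and the removal of doublets, with medians of 8642 and 7892 UMIs. Cells were classed by marker gates, in which at least 3 markers of a class had a UMI and their summed share passed a limit, and no followed gene was a marker. Macrophages were 5752 cells in UEIS KI and 5850 in UEIS LSL, or 66.2% and 67.7%. The sort was for CD45+ cells, yet 130 and 239 cells passed a fibroblast gate built on collagen and matrix genes. 531 and 544 cells passed more than 1 gate and 1611 and 1332 passed none, and erythroid markers summed to 4216 UMIs in UEIS KI and 505 in UEIS LSL. A gate is a range of a marker level, not a cell type: 358 UEIS KI and 344 UEIS LSL cells lay within 1.2-fold above the macrophage limit, and 11 and 6 above the neutrophil limit.

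Macrophages held the largest share of the UMIs of all 5 ligand genes in both libraries. They also held most UMIs of all genes, 59406658 of 86651991 in UEIS KI and 54432635 of 80244567 in UEIS LSL. They carried 73.5% of Cxcl2 UMIs in UEIS KI and 75.4% in UEIS LSL, 92.7% and 88.6% of Pf4 UMIs, 84.0% and 84.5% of Cxcl16 UMIs and 62.4% and 54.9% of Cxcl1 UMIs. Cxcl3 was spread more widely, with 50.02% and 55.9% of its UMIs in macrophages and 33.3% and 32.4% in cells that passed no gate. In both libraries the Cxcl1 and Cxcl3 shares were below the macrophage share of all UMIs, and the Cxcl2, Cxcl16 and Pf4 shares above it. Fibroblast-gated cells were the second named source of Cxcl1, with 13.7% of its UMIs in UEIS KI and 17.2% in UEIS LSL. The share of each gene's UMIs by gate is drawn in the stacked plot.

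**Figure D1:**
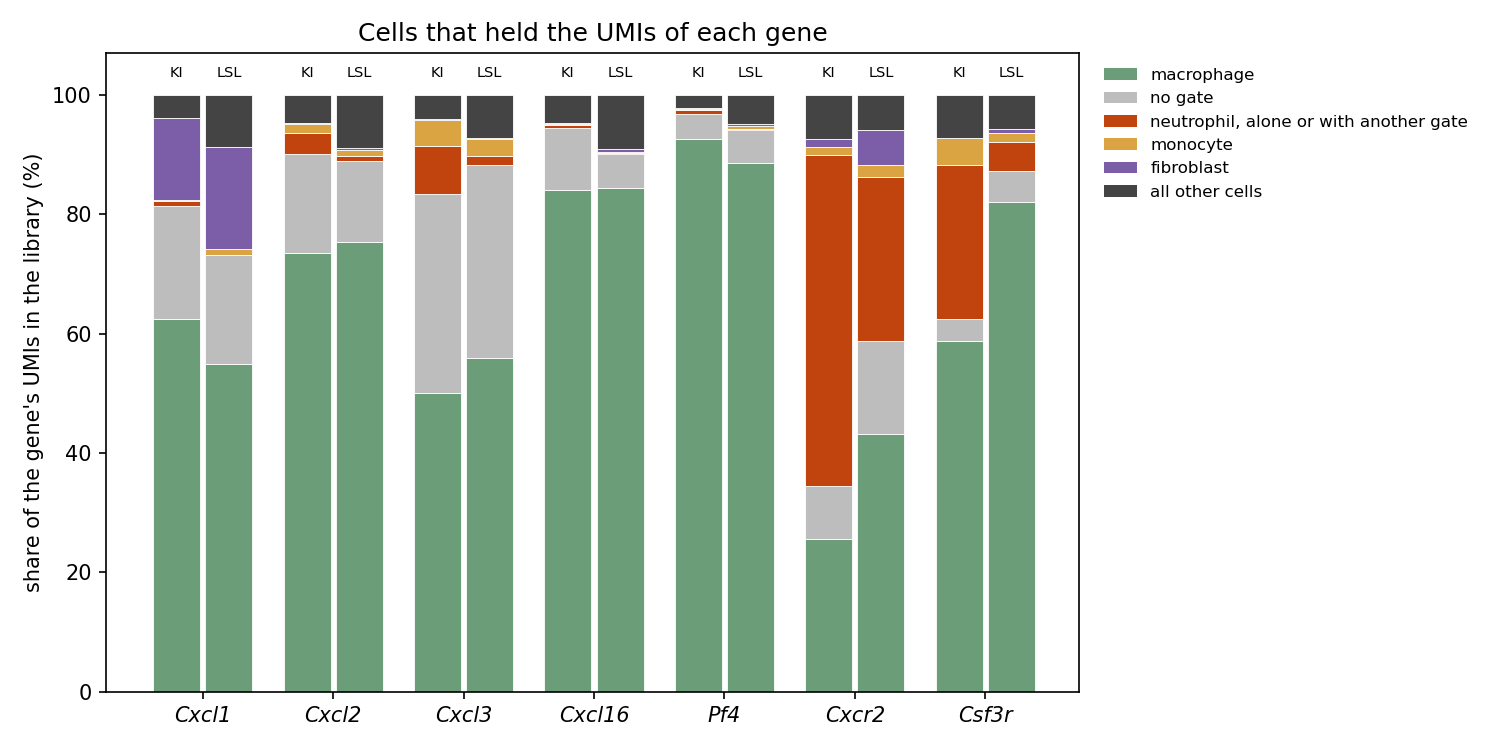
Share of each gene's UMIs (%) held by macrophages, cells with no gate, neutrophils (alone or with another gate), monocytes, fibroblasts and all other cells, with the UEIS KI bar left of the UEIS LSL bar for each gene. Macrophages hold most Cxcl2, Cxcl16 and Pf4 UMIs in both libraries, and neutrophil-gated cells hold 55.4% of Cxcr2 UMIs in UEIS KI and 27.5% in UEIS LSL.

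The question the libraries pose for these genes is whether ligand levels and neutrophil numbers differed between UEIS KI and UEIS LSL tumours. In macrophages, Cxcl3 was the ligand that fell in UEIS KI, to 34.7 CPM (UMIs of the gene per 1000000 UMIs of the class, interval 33.2 to 36.2), against 71.6 CPM (69.4 to 73.9) in UEIS LSL. That is 2.07-fold lower in UEIS KI, a log2 ratio (UEIS KI over UEIS LSL, as throughout) of -1.05. Cxcl2, the ligand with most UMIs, had 2499 CPM (2487 to 2512) in UEIS KI and 3123 CPM (3108 to 3138) in UEIS LSL, a log2 ratio of -0.32. For Cxcl1 the levels were 95.5 CPM in UEIS KI and 110.1 CPM in UEIS LSL, a log2 ratio of -0.20 that came to -0.01 after every cell was thinned to 1000 UMIs. A gene was called lower or higher when it differed at least 1.5-fold with its counting interval on that side of 1, and neither Cxcl1 nor Cxcl2 was called. Summed over Cxcl1, Cxcl2 and Cxcl3 the level was 2629.5 CPM in UEIS KI and 3305 CPM in UEIS LSL, a log2 ratio of -0.33.

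2 of the 7 genes were called lower in UEIS KI macrophages and 0 higher, where 5.27% of 13252 measured genes were called lower and 5.09% higher. The called genes were Cxcl3 and Csf3r. The median log2 ratio of the 7 was -0.27, against 0.03 for all measured genes of the class. Only 2.36% of measured genes had a lower ratio than Cxcl3, whereas 11.9% lay below Cxcl2 and 18.3% below Cxcl1. Cxcl3 kept at least a 1.5-fold difference in 13 of 13 alternative treatments of the data, with log2 ratios between -1.73 and -0.69.

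Cxcl16 and Pf4 differed little over all macrophages. Cxcl16 had 358 CPM in UEIS KI and 433 CPM in UEIS LSL (log2 ratio -0.27), and when each macrophage subset was given its pooled share of cells as its weight in either library this came to -0.10. Pf4 had 2350.3 CPM in UEIS KI and 1919 CPM in UEIS LSL (log2 ratio 0.29). With subsets weighted that way, the Pf4 ratio turned to -0.18. Both values were under 1.5-fold, so neither gene was called.

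The Cxcl3 RNA of macrophages sat in very few cells. The top 1% of macrophages held 58.6% of the macrophage Cxcl3 UMIs in UEIS KI and 58.2% in UEIS LSL. The cell with most held 88 UMIs in UEIS KI and 156 in UEIS LSL. Cxcl2 was broad by comparison: the median macrophage held 12 UMIs in UEIS KI and 14 in UEIS LSL. After every cell was thinned to 1000 UMIs, a Cxcl2 UMI was seen in 62.8% of UEIS KI and 64.6% of UEIS LSL macrophages, and 87.4% and 86.3% before thinning. T cells, which should lack it, gave 22.5% and 24.3%, used here as the background share. Free RNA was not estimated, and in UEIS LSL 354 of the 881 Cxcl2 UMIs of T cells lay in 3 cells. Median depths were 9349 and 8284.5 UMIs in macrophages and 1989 and 2278 UMIs in T cells.

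Read against that background, Cxcl16 and Pf4 were also above it in macrophages. A Cxcl16 UMI was seen in 27.3% of UEIS KI and 31.2% of UEIS LSL macrophages after thinning (78.1% and 81.1% before), against 2.70% and 4.67% of T cells. For Pf4 the shares were 64.5% and 53.4% (89.5% and 81.8% before thinning), against 20.7% and 14.02% of T cells. Cxcl1 was seen in 7.17% of UEIS KI and 7.02% of UEIS LSL macrophages (20.1% and 18.6% before), against 5.41% and 0.935% of T cells. Cxcl3 was close to or below background by this measure, with 2.24% and 3.37% of macrophages (7.84% and 9.57% before) against 1.80% and 4.67% of T cells, so its share of cells is not read as expression. The 113 T cells of each library held 4 Cxcl3 UMIs in UEIS KI and 95 in UEIS LSL, so by count this background was also lower in UEIS KI. Its part in the macrophage Cxcl3 ratio was not tested. What set Cxcl3 apart was the high count in a few cells: 48 UEIS KI and 102 UEIS LSL macrophages held 10 or more UMIs.

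**Figure D2:**
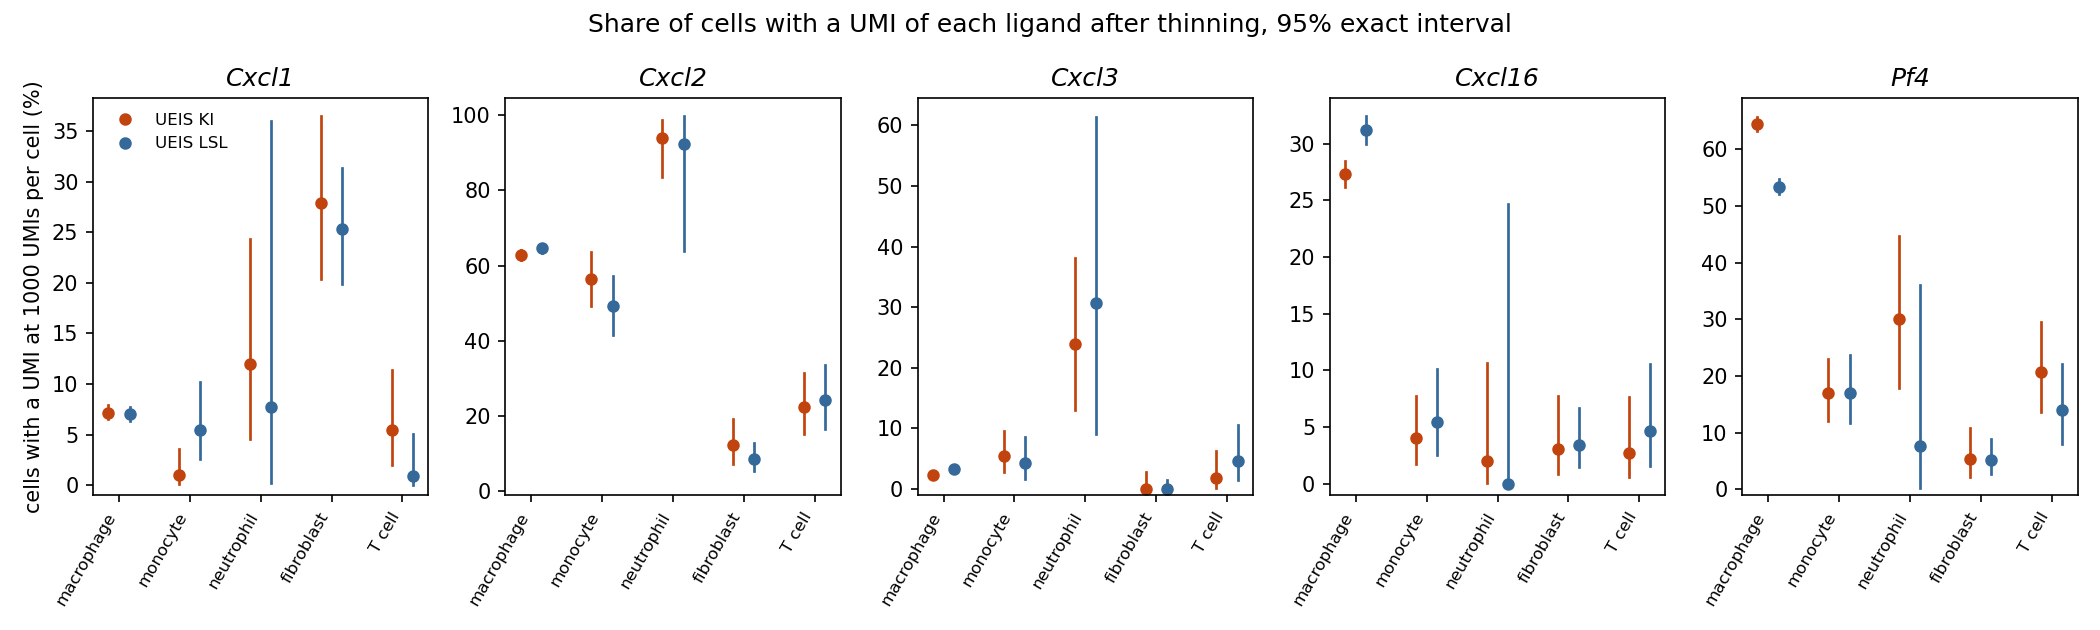
Share of cells (%) with a UMI of each ligand after thinning to 1000 UMIs per cell, by gate, UEIS KI left of UEIS LSL, with lines for exact 95% intervals. Macrophages lie above T cells for Cxcl2, Cxcl16 and Pf4 in both libraries, and neutrophils reach 94.0% for Cxcl2 in UEIS KI and 92.3% in UEIS LSL.

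Macrophages were split further by marker levels into dividing, interferon (Isg15 and Ifit genes), resident (Lyve1, Folr2, Cd163), class II, Spp1 (Spp1, Arg1, Vegfa and other genes of hypoxia and matrix) and other cells. The mix differed: Spp1 cells were 22.9% of macrophages in UEIS KI and 9.45% in UEIS LSL, class II cells 9.61% and 30.8%, resident cells 14.5% and 5.38%, and interferon cells 1.27% and 4.84%. Of the 6 subsets, Spp1 cells had the largest Cxcl3 difference with all cells kept. Their level fell to 87.5 CPM (82.7 to 92.5) in UEIS KI, against 428 CPM (409 to 448) in UEIS LSL, a log2 ratio of -2.29. These levels came from 1256 UMIs in 183 of 1319 UEIS KI cells and 1870 UMIs in 158 of 553 UEIS LSL cells. After thinning, a Cxcl3 UMI was in 5.19% (4.06 to 6.54) of UEIS KI and 14.4% (11.5 to 17.6) of UEIS LSL Spp1 cells. The T cell shares were 1.80% (0.219 to 6.36) and 4.67% (1.53 to 10.6), so the intervals overlapped in UEIS KI and not in UEIS LSL. Median depths of these Spp1 cells were 10242 UMIs in UEIS KI and 6778 in UEIS LSL. The limit of this subset fell in a dense range, with 397 UEIS KI and 217 UEIS LSL macrophages within 1.2-fold above it. Moving it 2-fold either way gave log2 ratios of -2.02 and -1.93. Without the top cell of each library the Spp1 ratio was -2.27 (-2.38 to -2.16). That of interferon cells was then lower, at -2.75 (-3.98 to -1.74), so the order of these subsets depends on single cells.

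Of 6 genes measured in the Spp1 subset, 4 were called lower in UEIS KI and 0 higher, where 3.81% of all genes were called lower and 6.63% higher. Cxcl2 fell to 2758 CPM in UEIS KI, against 4401 CPM in UEIS LSL (log2 ratio -0.67). Pf4 fell to 2792 CPM in UEIS KI, against 4822 CPM in UEIS LSL (log2 ratio -0.79). Csf3r, with 63 and 33 UMIs, was the fourth, at 4.39 and 7.56 CPM (log2 ratio -0.78). Cxcl1 had 97.8 CPM in UEIS KI and 146 CPM in UEIS LSL (log2 ratio -0.57), short of 1.5-fold, and Cxcl16 had 312 and 237 CPM (0.40).

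In resident macrophages Cxcl1 was higher in UEIS KI, and a difference in Cxcl3 rested on 1 cell. Here 2 of 6 measured genes were called higher in UEIS KI and 0 lower, where 4.22% of genes were called higher and 2.67% lower. Cxcl1 rose to 163 CPM in UEIS KI, against 93.3 CPM in UEIS LSL (log2 ratio 0.80). Cxcl3 was at 18.2 CPM in UEIS KI and 7.81 CPM in UEIS LSL (1.22), on 97 and 17 UMIs, and 42 of the 97 were in 1 cell. Without the top cell of each library its ratio was 0.68 (-0.19 to 1.64) and was no longer called. Cxcl2 was at 2440.3 and 2217 CPM (0.14), and Pf4 at 3692 and 3494 CPM (0.08).

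Cxcl3 was called lower in UEIS KI in the other 4 subsets as well. Its log2 ratios were -0.97 in dividing, -1.44 in interferon, -0.66 in class II and -1.27 in other macrophages, where 4.04%, 3.98%, 4.39% and 3.55% of genes were called lower. The interferon value rested on 29 UEIS KI UMIs, 21 of them in 1 cell, and 270 UEIS LSL UMIs. Without the top cell of each library it was -2.75 (-3.98 to -1.74). Pf4 moved apart from Cxcl3 in interferon macrophages, where Pf4 rose to 2314 CPM in UEIS KI, against 1223 CPM in UEIS LSL (0.92, with 4.57% of genes higher). In the same cells Cxcl16 fell to 342 CPM in UEIS KI, against 517 CPM in UEIS LSL (-0.59). That subset held 73 cells in UEIS KI and 283 in UEIS LSL. Csf3r was called lower in dividing and in other macrophages, at 3.36 and 7.62 CPM in UEIS KI, against 6.43 and 11.6 CPM in UEIS LSL.

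**Figure D3:**
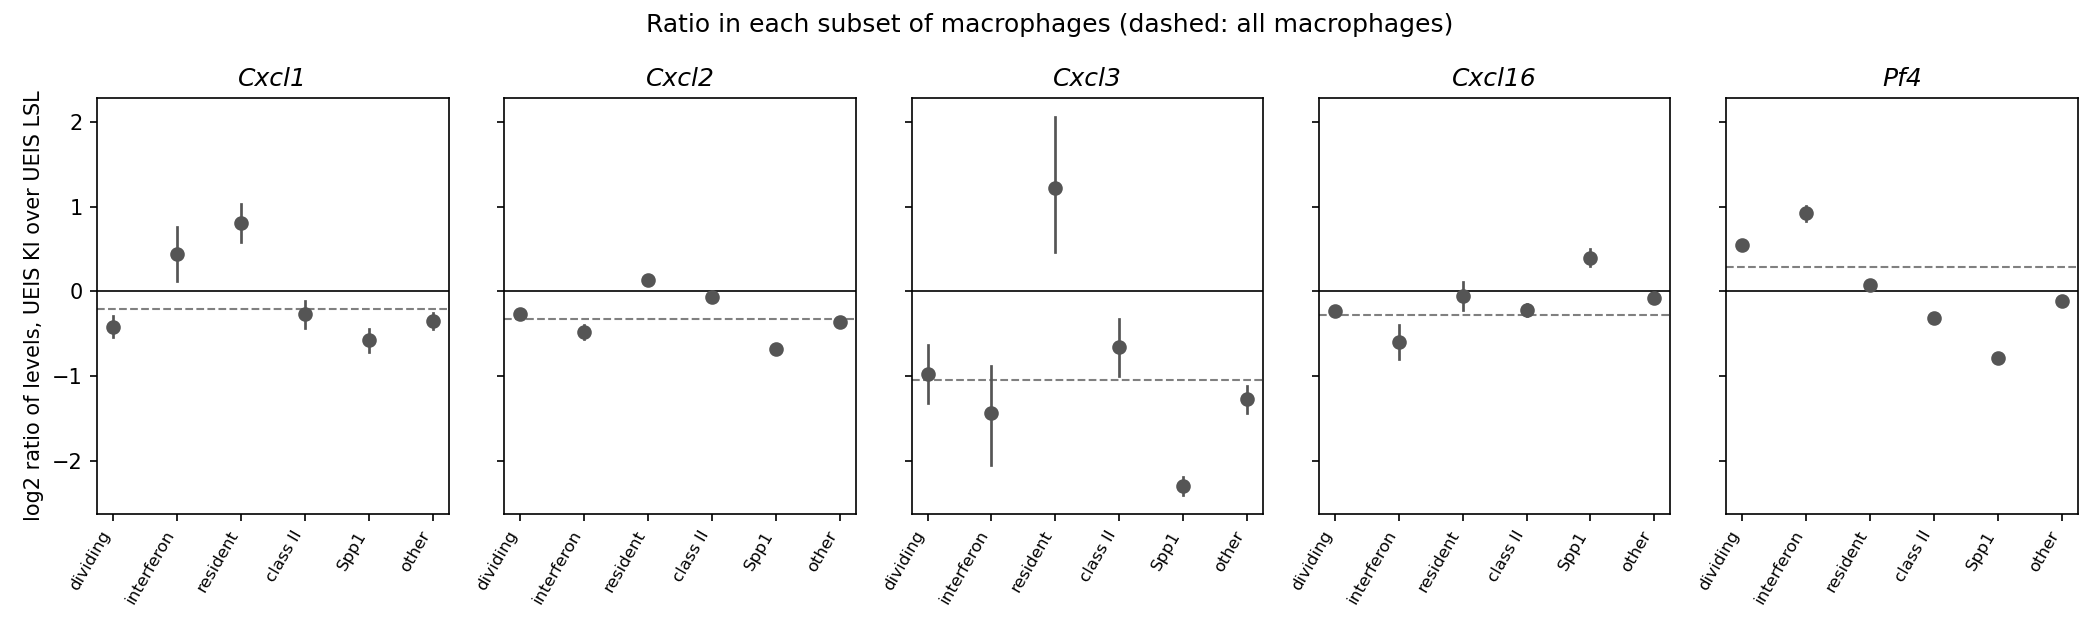
Log2 ratio of levels, UEIS KI over UEIS LSL, of each ligand in 6 macrophage subsets, with lines for 95% counting intervals and a dashed line at the ratio over all macrophages. Cxcl3 reaches -2.29 in Spp1 cells and 1.22 in resident cells (0.68 without the top cell of each library), and the Pf4 ratio lies between -0.79 in Spp1 cells and 0.92 in interferon cells.

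Ligands were seen together in macrophages. After thinning, a Cxcl2 UMI was in 87.3% of UEIS KI and 91.8% of UEIS LSL macrophages that had a Cxcl1 UMI, against 60.9% and 62.5% of those without. Among macrophages with a Cxcl3 UMI, 80.2% in UEIS KI and 87.6% in UEIS LSL had one of Cxcl2, against 62.4% and 63.7% of those without. Cells of 1 library may share free RNA, which was not estimated, so these are descriptions of each library.

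Monocytes, 205 gated cells in UEIS KI and 164 in UEIS LSL, had Cxcl2 at 2867 CPM in UEIS KI and 3353 CPM in UEIS LSL (log2 ratio -0.23). Among the 5 measured genes, 3 were called lower in UEIS KI and 0 higher, where 5.41% of 4236 genes were called lower and 5.71% higher. Cxcl3 had 168 CPM in UEIS KI and 307 CPM in UEIS LSL (-0.86), Pf4 321 and 959.6 CPM (-1.58), and Cxcl1 12.2 CPM (6.48 to 20.8) and 147 CPM (119 to 179) (-3.59). The Cxcl1 value rested on 13 UMIs in 12 UEIS KI cells and 97 UMIs in 13 UEIS LSL cells, of which 55 were in 3 cells. With the gate limits divided by 2 it turned to 0.15, so no direction is drawn for Cxcl1 in monocytes. For Pf4, 1 UEIS LSL cell held 189 of the 635 UMIs, and without the top cell of each library the ratio was -1.42. For Cxcl3, 3 cells held 99 of the 180 UMIs in UEIS KI and 3 cells held 133 of the 203 in UEIS LSL. Without the top cell of each library the Cxcl3 ratio was -0.72 (-1.06 to -0.38).

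Fibroblast-gated cells had Cxcl1 at 569 CPM (538 to 602) in UEIS KI and 478 CPM (456 to 499.7) in UEIS LSL, and the counting intervals did not overlap, though the log2 ratio of 0.25 was under 1.5-fold. A Cxcl1 UMI was in 82 of 130 UEIS KI and 152 of 239 UEIS LSL fibroblasts, and after thinning in 27.9% and 25.3%, above the T cell shares. In each library the Cxcl1 level of these cells was above that of macrophages. Cxcl16 was the 1 of 4 measured genes called lower in UEIS KI fibroblasts, at 21.0 CPM against 40.4 CPM in UEIS LSL (-0.94, on 46 and 159 UMIs), where 7.26% of genes were called lower. Macrophage marker UMIs in the fibroblast gate summed to 533 CPM in UEIS KI and 636 CPM in UEIS LSL with none of the 12 markers at 0, and their part in the Cxcl16 value was not tested.

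Mature dendritic cells, which carry antigen to T cells, had the highest Cxcl16 level of the 8 gates plotted, 925 CPM in UEIS KI and 933 CPM in UEIS LSL, a log2 ratio of -0.01. A Cxcl16 UMI was in 51 of 53 UEIS KI and 84 of 87 UEIS LSL cells. Cxcl2 rose to 1171 CPM in UEIS KI mature dendritic cells, against 622 CPM in UEIS LSL (0.91). Of its UMIs, 182 of 390 in UEIS KI and 127 of 320 in UEIS LSL were in 3 cells, and without the top cell of each library the ratio was 0.82. Cxcl1 fell to 138 CPM in UEIS KI, against 224 CPM in UEIS LSL (-0.70), but on 46 and 115 UMIs. 1 UEIS KI cell held 23 of the 46, and without the top cell of each library the Cxcl1 ratio was -1.41. In this gate 6.39% of genes were called higher and 2.53% lower. Cxcl3 counted 105 UMIs there in UEIS KI and 1 in UEIS LSL, but 100 of the 105 were in 1 cell. In cDC2 cells Cxcl16 was at 298 CPM in both libraries. Cxcl1 was called lower there, at 13.9 CPM in UEIS KI and 134 CPM in UEIS LSL (-3.27), where 2.89% of genes were lower. This rested on 15 UMIs in UEIS KI and 265 in UEIS LSL, 108 of them in 1 UEIS LSL cell, and without the top cell of each library it was -3.09.

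Cells with no gate showed 3 of 6 measured genes called lower in UEIS KI and 0 higher, where 9.43% of genes were called lower and 3.65% higher. Cxcl1 fell to 92.5 CPM in UEIS KI, against 148 CPM in UEIS LSL (-0.68). Cxcl3 fell to 73.8 CPM in UEIS KI, against 168 CPM in UEIS LSL (-1.19). Csf3r was called on 26 and 37 UMIs. Over all kept cells, Cxcl3 was the 1 of 7 genes called lower, at 47.5 CPM in UEIS KI and 87.0 CPM in UEIS LSL (-0.87), and Cxcr2 the 1 called higher, where 10.1% and 3.66% of genes were called lower and higher.

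**Figure D4:**
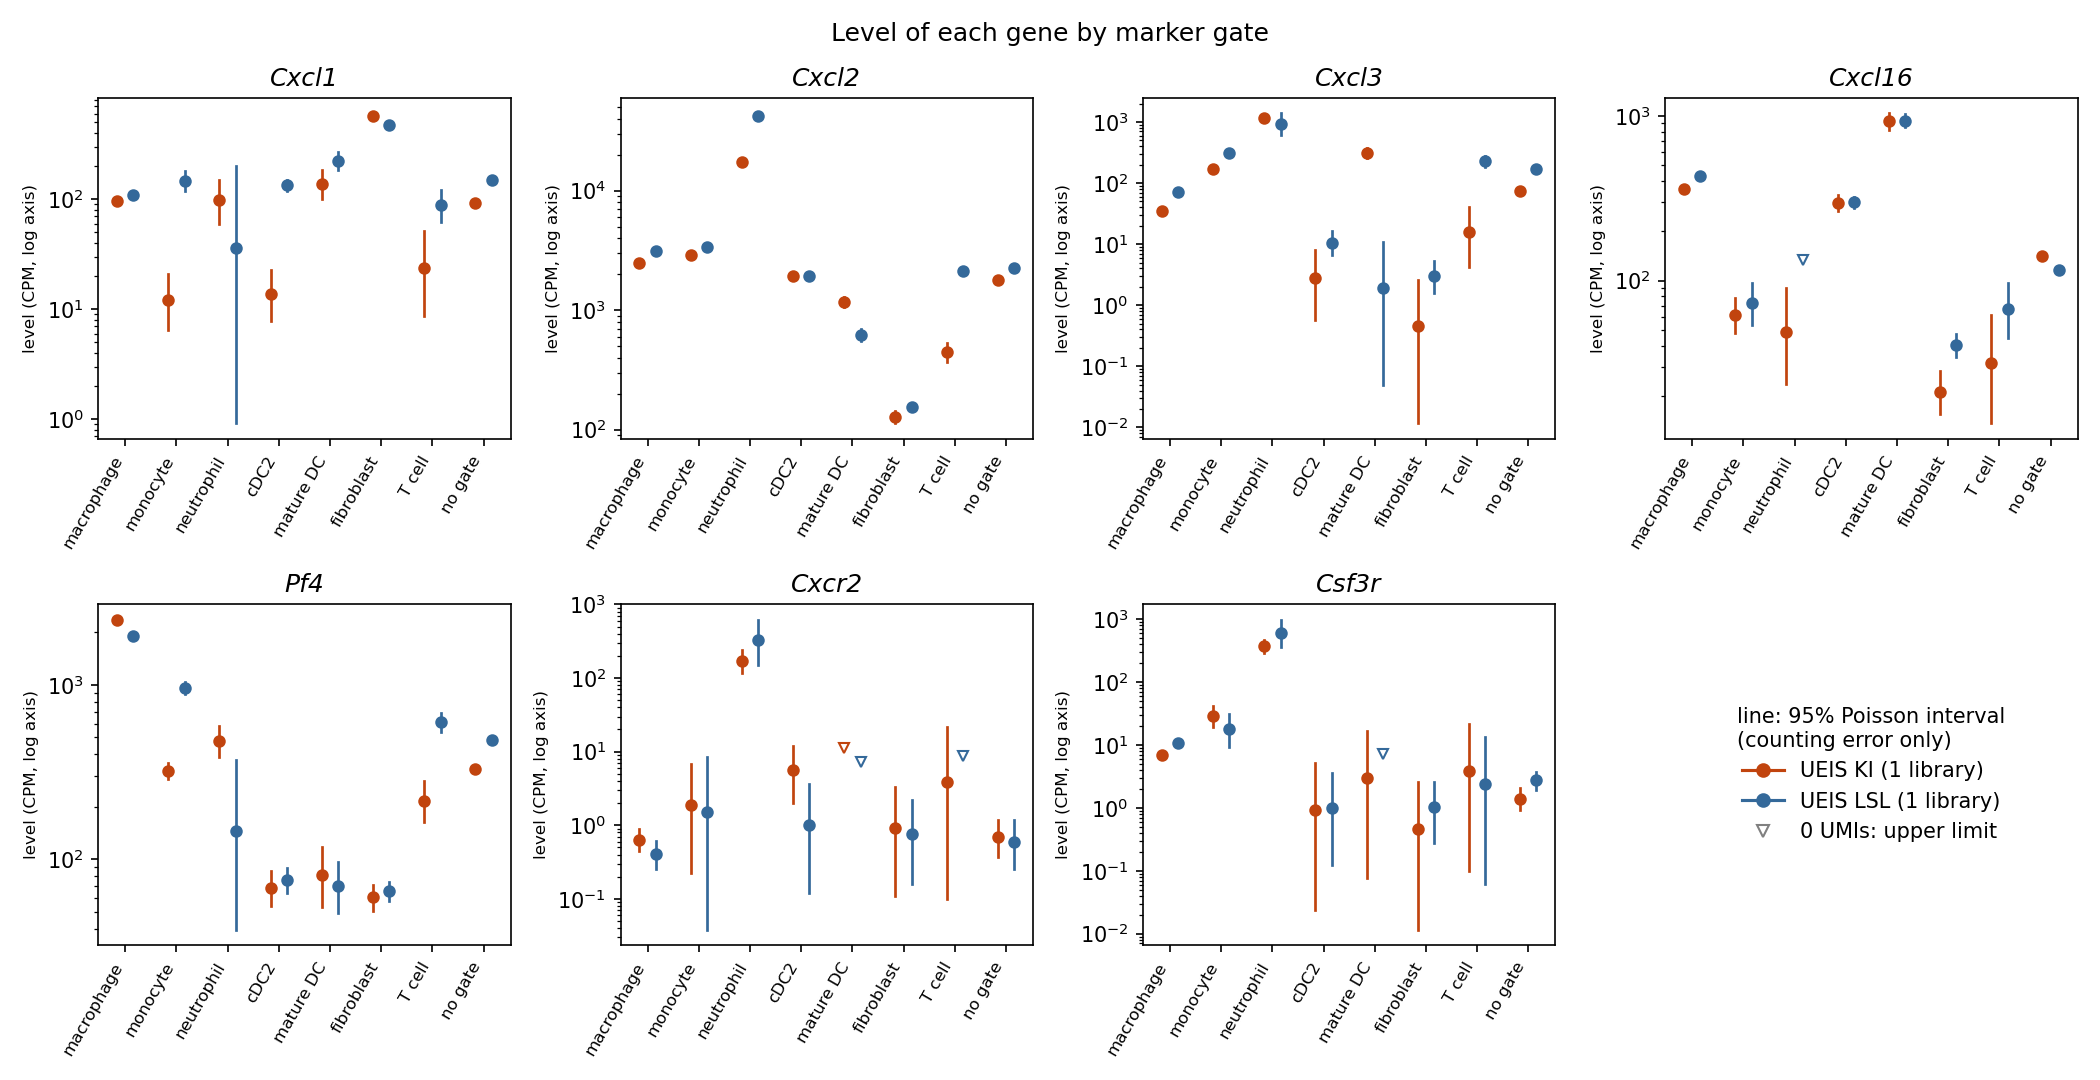
Level of each gene (CPM, log axis) in 8 gates, UEIS KI left of UEIS LSL, with lines for 95% Poisson intervals and open triangles for the upper limit at 0 UMIs. Cxcl2 is highest in the neutrophil gate (17333 CPM in UEIS KI, 41662 CPM in UEIS LSL), Cxcl1 in fibroblasts and Cxcl16 in mature dendritic cells.

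Neutrophils were rare and more frequent in UEIS KI. Cells that passed the neutrophil gate alone numbered 74 of 8685 in UEIS KI (0.852%, interval 0.670 to 1.07) and 22 of 8646 in UEIS LSL (0.254%, 0.1595 to 0.385). The share was 3.35-fold higher in UEIS KI (2.06 to 5.66, counting error only). S100a8, which encodes a calprotectin subunit of neutrophils, was detected in 71 of 74 UEIS KI and 21 of 22 UEIS LSL cells, and Retnlg in 42 and 6. Ly6g, the classic surface marker, had a UMI in 4 of the 74 and 0 of the 22, and the granule gene Camp in none. S100a8, Retnlg, Ly6g and Camp are markers of the gate itself, so their detection describes the selection and is no separate evidence of cell type. Including barcodes that also passed another gate, 167 UEIS KI and 42 UEIS LSL cells were neutrophil-gated, a 3.96-fold difference in share (2.81 to 5.69).

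The direction held in 9 of 9 alternative gates and filters, with log2 ratios from 1.14 to 2.32. The numbers were small in each: 50 UEIS KI and 10 UEIS LSL cells with at least 500 detected genes, 42 and 19 with gate limits divided by 2, and 55 and 13 without S100a8 and S100a9 as markers. Neutrophils carry little RNA, and the gated cells had medians of 1211 UMIs in UEIS KI and 1061.5 in UEIS LSL. Deposited barcodes started at 500 and 501 UMIs, so shallower neutrophils were not analysed here. Shares are of sorted CD45+ cells and give no number per tumour.

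Cxcr2, the receptor for the 3 ligands, rose in UEIS KI over all kept cells, while its levels within neutrophils had overlapping intervals. Over all cells it had 148 UMIs in UEIS KI (1.71 CPM, 1.44 to 2.01) and 51 in UEIS LSL (0.636 CPM, 0.473 to 0.836), 2.69-fold higher in UEIS KI (1.94 to 3.77). Neutrophil-gated cells held 55.4% of these UMIs in UEIS KI and 27.5% in UEIS LSL. Within them the level was 105 CPM (83.9 to 131) in UEIS KI and 116 CPM (63.3 to 194) in UEIS LSL, a log2 ratio of -0.14. These include barcodes that also passed another gate, among them 61 UEIS KI and 15 UEIS LSL barcodes in the macrophage gate. The neutrophil gate alone held 35 UEIS KI and 9 UEIS LSL Cxcr2 UMIs. Without the top cell of each library its levels were 165 and 260 CPM, a log2 ratio of -0.66 (-1.87 to 0.77). In macrophages Cxcr2 was scarce, with 38 UMIs over 5752 UEIS KI cells and 22 over 5850 UEIS LSL cells. Outside the neutrophil gate 58 UEIS KI and 37 UEIS LSL cells had a Cxcr2 UMI.

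Csf3r, the G-CSF receptor, was less tied to neutrophils. It had 698 UMIs in UEIS KI and 727 in UEIS LSL, or 8.06 and 9.06 CPM over all cells, and macrophages held 58.7% and 82.1% of them. In macrophages it was called lower, at 6.90 CPM (6.25 to 7.60) in UEIS KI and 10.97 CPM (10.1 to 11.9) in UEIS LSL, a log2 ratio of -0.67. The difference stayed at least 1.5-fold in 8 of 13 alternatives, and the ratio was -0.48 with gate limits multiplied by 2, -0.37 with barcodes of 2 gates counted and -0.26 after thinning. Resident macrophages had the highest Csf3r level of the 6 subsets, 17.8 CPM in UEIS KI and 24.3 CPM in UEIS LSL. In neutrophil-gated cells the level was far above that, at 231 CPM in UEIS KI and 289.5 CPM in UEIS LSL, and the intervals overlapped.

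Of the 167 neutrophil-gated UEIS KI cells, 56 had a Cxcr2 UMI, 94 a Csf3r UMI and 44 both. Of the 42 in UEIS LSL, 10 had Cxcr2, 19 Csf3r and 6 both. At this depth 61 UEIS KI and 19 UEIS LSL cells showed neither receptor. The background was low: a Cxcr2 UMI was in 1 of 113 UEIS KI T cells and none of 113 UEIS LSL T cells, and a Csf3r UMI in 1 in each. Thinned to 1000 UMIs, Csf3r was in 42.0% (28.2 to 56.8) of 50 UEIS KI and 23.1% (5.04 to 53.8) of 13 UEIS LSL cells of the neutrophil gate alone. The UEIS LSL share was 3 cells, and macrophages gave 0.944% and 1.09%. Cxcr2 was in 28.0% (16.2 to 42.5) and 7.69% (0.195 to 36.0) of the same neutrophils. For both receptors the intervals of the libraries overlapped.

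**Figure D5:**
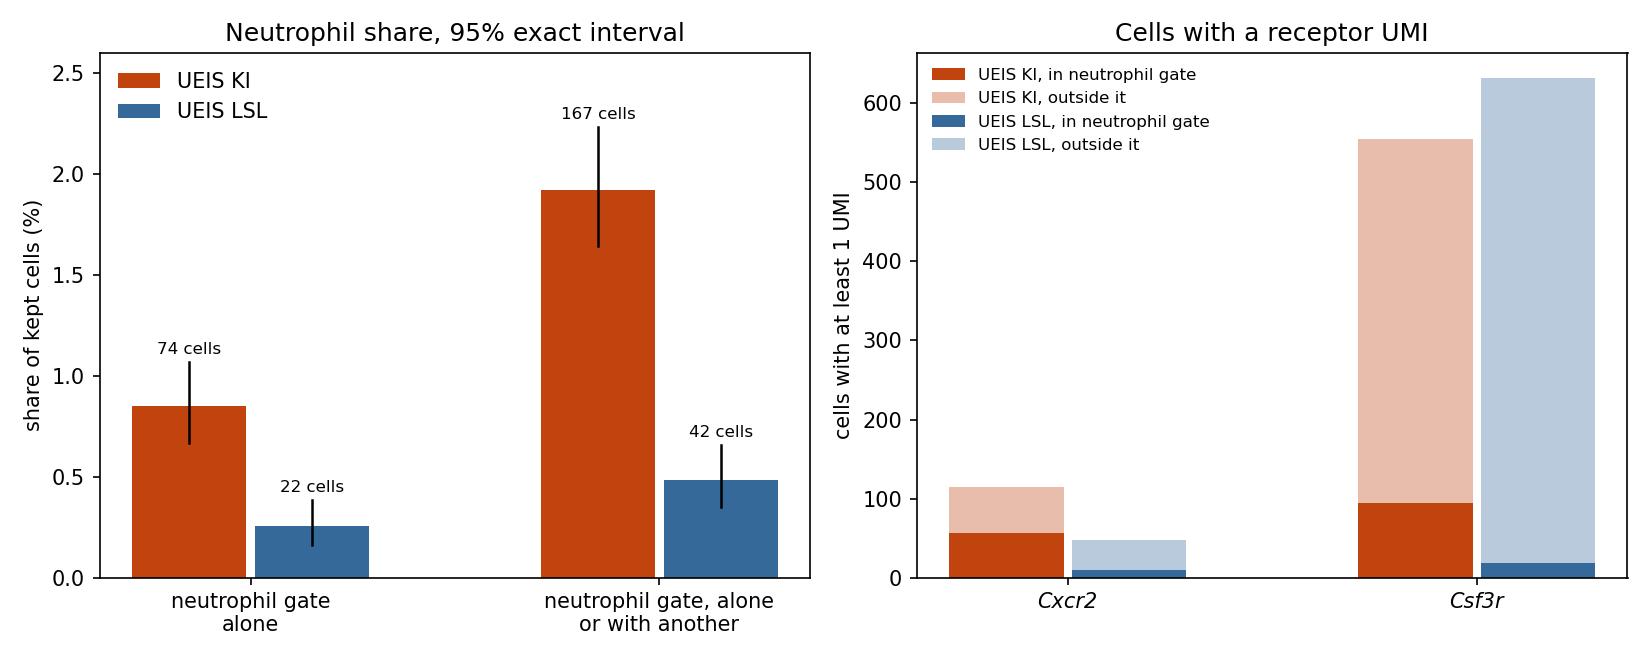
Left: share of kept cells (%) in the neutrophil gate, alone or with another gate, with exact 95% intervals and cell numbers, UEIS KI left of UEIS LSL. Right: number of cells with a UMI of Cxcr2 or Csf3r inside (solid) and outside (pale) the neutrophil gate: 56 UEIS KI and 10 UEIS LSL neutrophils had Cxcr2, and most Csf3r cells lay outside the gate.

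Neutrophils also carried ligand RNA. Cxcl2 had 48.1 UMIs per cell in UEIS KI neutrophils (gate alone) and 52.3 in UEIS LSL, from cells with little RNA in all. As a level this was 17333 CPM (16768 to 17912) in UEIS KI and 41662 CPM (39289 to 44142) in UEIS LSL, a log2 ratio of -1.27 that was called (11.1% of 712 genes lower, 18.8% higher). In UEIS LSL 1 of the 22 cells held 365 of the 1150 UMIs, and without the top cell of each library the ratio was -0.96. It was -0.12 in UMIs per cell, -0.47 with gate limits multiplied by 2 and -0.40 with them divided by 2, and at least 1.5-fold in 2 of 5 alternatives, so its size depends on both the scale and the gate. After thinning, Cxcl2 was in 94.0% of UEIS KI and 92.3% of UEIS LSL neutrophils.

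Cxcl3 in the same neutrophils was at 1145 CPM in UEIS KI and 942 CPM in UEIS LSL, on 235 and 26 UMIs (log2 ratio 0.28). It was in 24.0% (13.1 to 38.2) of 50 thinned UEIS KI cells and 30.8% (9.09 to 61.4) of 13 thinned UEIS LSL cells. These intervals lay above those of macrophages, and the UEIS KI one above that of T cells. The UEIS LSL one overlapped that of UEIS LSL T cells (1.53 to 10.6). With barcodes that pass another gate included, neutrophils held 8.11% of all Cxcl3 UMIs in UEIS KI and 1.40% in UEIS LSL, and 3.62% and 0.867% of Cxcl2 UMIs. Cxcl1 counted 20 UMIs in UEIS KI neutrophils and 1 in UEIS LSL, and Cxcl16 10 and 0. Pf4 counted 98 UMIs in UEIS KI neutrophils, 45 of them in 1 cell, and 4 in UEIS LSL. Macrophage markers summed to 3026 CPM in UEIS KI and 1848 CPM in UEIS LSL of these neutrophils, with 0 and 1 of 12 markers at 0, and their part in the Pf4 counts was not tested.

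Set side by side, the UEIS KI library had the larger neutrophil share (0.852%, against 0.254% in UEIS LSL) with 2483 CPM of Cxcl1, Cxcl2 and Cxcl3 summed over all cells, against 3032 CPM in UEIS LSL. Outside the neutrophil gate the sum was 2415 CPM in UEIS KI and 3011 CPM in UEIS LSL. With 2 libraries no relation between ligand level and neutrophil share can be computed.

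Pf4 RNA is often read as a sign of platelets. Of 8 platelet and megakaryocyte markers (Itga2b, Gp9, Gp5 and others), 3 were at 0 in UEIS KI and 2 in UEIS LSL, the 8 summed to 108 and 101 UMIs, and 0 cells in either library had 3 or more of them. Ppbp, the other platelet chemokine of the cluster, was in macrophages at 13.5 CPM in UEIS KI and 22.4 CPM in UEIS LSL, called lower (-0.73).

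Genes of the same system beyond the 7 were counted from a list of 35, of which 30 were measured in macrophages. 3 were higher in UEIS KI, 8 lower and 19 neither, where 5.09% of all genes were called higher and 5.27% lower, with a median log2 ratio of -0.05 against 0.03 for all genes. The formyl peptide receptor Fpr1 was at 7.24 CPM in UEIS KI and 3.21 CPM in UEIS LSL (1.17), and Alox5, the first enzyme of leukotriene synthesis, at 58.7 and 35.1 CPM (0.74). Lower were Csf2, which encodes the growth factor GM-CSF (-2.48, on 9 and 46 UMIs), and Cxcr6, the receptor of Cxcl16 (-1.92, on 42 and 146 UMIs). The 3 with most UMIs were not called: Alox5ap at 1346.5 and 1060 CPM, the chemokine Ccl4 at 974 and 1269 CPM and the complement receptor C5ar1 at 680 and 701 CPM. Csf3, which encodes G-CSF itself, had 44 UMIs in all UEIS KI cells and 47 in all UEIS LSL cells, and Cxcl5 34 and 29.

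NF-kappaB genes and inducers of these chemokines, 27 of 28 measured, gave 1 lower gene, 0 higher and 26 neither in macrophages, against 5.27% of all genes lower and 5.09% higher, with a median of -0.10 against 0.03. The lower one was Il1b, the interleukin 1 beta gene, at 825 CPM in UEIS KI and 1399 CPM in UEIS LSL (-0.76). Ier3 was at 1034 and 981 CPM, Zfp36, whose protein destabilises such transcripts, at 850 and 835 CPM. The adaptor gene Myd88 had 49.0 CPM in UEIS KI and 68.6 CPM in UEIS LSL. Tlr2, a receptor for bacterial lipoproteins, had 181 and 137 CPM, and Clec4e 106 and 96.5 CPM.

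Cxcl1 and Cxcl2 also answer to tissue digestion, so 15 genes of dissociation stress were set beside them. In macrophages 1 was higher in UEIS KI, 2 lower and 12 neither, against 5.09% of all genes higher and 5.27% lower, with a median log2 ratio of -0.27 against 0.03. Hspa1a, a heat shock gene, fell to 578 CPM in UEIS KI, against 1082 CPM in UEIS LSL, and Hspa1b to 181 CPM, against 331 CPM. Egr1 rose to 237 CPM in UEIS KI, against 156 CPM in UEIS LSL, and Hspb1 was at 14.8 and 13.3 CPM. Fos had 4085 CPM in UEIS KI and 5083 CPM in UEIS LSL (-0.32), and Dusp1 2292 and 2875 CPM (-0.33), and Junb 1509.9 and 1701 CPM (-0.17). The part of digestion in the ligand values was not tested.

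Patterns over cell classes were compared over 14 points, 7 classes in each of 2 libraries, among 11023 genes, on log2(CPM + 10). The 7 were macrophages, monocytes, cDC2 cells, mature dendritic cells, T cells, fibroblasts and cells with no gate. Neutrophils, with fewer than 50 cells in UEIS LSL, were not among them. At these points Cxcr2 reached at most 5.55 CPM and Csf3r 29.0 CPM, so their likeness leaves out the gate with their highest levels. The points share libraries, so the correlations are descriptions. Cxcl2 was most like Ccr1 (Pearson r = 0.978), Was (0.976) and Cd14 (0.973), and Pf4 most like Lgmn (0.940), Cndp2 (0.935) and Ninj1 (0.934). Csf3r went with Stfa2l1 (0.922), Mtus1 (0.909) and C5ar2 (0.902), and Cxcl16 with Bcl2a1a (0.929), Rnf180 (0.924) and Gpr85 (0.917). Likeness was less close for Cxcl1 (Tfg, 0.896), Cxcl3 (Egln3, 0.889) and Cxcr2 (Klhl18, 0.881), the next genes being Tmem170 (0.883) and Zbtb26 (0.880) for Cxcl1, Mmp8 (0.864) and Eed (0.857) for Cxcl3, and Vipr1 (0.846) and Macrod2 (0.794) for Cxcr2.

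Cxcl2 and Cxcl3 are close relatives, and counting could share reads between them. Of all 60-base words of their longest transcripts, 51 were common to both, 2.83% of the words of Cxcl2 and 5.33% of those of Cxcl3, and 0 of these lay in the last 400 bases, where 3' reads fall. Cxcl1, Pf4 and Cxcl16 shared 0 words with another gene. Cxcr2 shared 9 words and Csf3r 40 within the last 400 bases, so their counts are less certain.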

How the data were processed

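RNA was measured in CD45+ tumour cells of 1 UEIS KI and 1 UEIS LSL library (10x 3' v3 chemistry). The deposited matrices hold raw UMI counts of each gene in each barcode, filtered for cells by the authors and not normalised. The submitters' processing notes give Cell Ranger 2.1.1 and mm10, and version 8.0.1 stands in the header of the files. Which annotation was used is not given in the sources used here. Gene positions are from GENCODE vM21 on GRCm38. 0 columns of other samples were present.

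Cells with at least 500 UMIs, at least 200 genes and no more than 10% of UMIs from mitochondrial genes entered (288 UEIS KI and 157 UEIS LSL barcodes exceeded the last limit). Doublets were the highest Scrublet scores (scanpy 1.11.5), 0.8% per 1000 barcodes, or 758 and 726. A gate needed at least 3 markers and a summed marker level per 10000 UMIs over 50 (macrophage), 40 (monocyte, fibroblast), 80 (neutrophil) or 10 to 20 (others). The limits were set after the distributions of marker levels were seen. Barcodes over more than 1 gate were set apart. No cell type was taken from a deposited annotation, so names describe gates.

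UMIs were summed per gate and scaled to CPM. Levels have exact Poisson, shares Clopper-Pearson and ratios conditional binomial 95% intervals (scipy 1.17.1), and 3 stood in for a count of 0. A gene was measured with at least 50 UMIs over both libraries. The calculation was checked on simulated counts. With 1 library a group and cells that are not replicates, nothing was tested. Cells were thinned to 1000 UMIs for shares of cells. The named genes are the 7 followed genes, for each the 3 genes of highest Pearson correlation, and genes of each list. Of each list those with most UMIs and those furthest from 1 each way in macrophages are named, not every called gene. Ppbp, Csf3, Cxcl5, Il17a and Ackr1 are named outside this rule, after their values were seen. The genes, lists and alternatives were chosen with earlier results of these data known. Tumour and endothelial cells and platelets were not analysed as classes.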

Additional observations from a re-analysis of the deposited data

Results flagged for a closer look

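The direction of a ligand between the libraries was not the same in every cell class. Cxcl1 had a log2 ratio (UEIS KI over UEIS LSL) of 0.80 in resident macrophages and -3.59 in monocytes. Cxcl3 had 1.22 in resident macrophages and -2.29 in Spp1 macrophages. Pf4 had 0.92 in interferon macrophages and -1.58 in monocytes. Each pair is set out because its 2 values were called in opposite directions as reported, and the difference between them was not tested. For Cxcl1 and Cxcl3 that does not hold throughout: with gate limits divided by 2 Cxcl1 in monocytes was 0.15, and without the top cell of each library Cxcl3 in resident macrophages was 0.68 (-0.19 to 1.64) and no longer called. The monocyte Cxcl1 value rested on 13 UMIs in UEIS KI and 97 in UEIS LSL, and the resident Cxcl3 value on 97 and 17. The Spp1 Cxcl3 value had 1256 UMIs in UEIS KI and 1870 in UEIS LSL, and its log2 ratio was between -2.42 and -1.93 in 4 alternatives.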

How the results depend on the processing

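The sign turned for Cxcl16 in monocytes in 2 of 12 alternatives, Pf4 in macrophages in 1 of 13, Cxcr2 in macrophages in 1 of 11 and Cxcl1 in monocytes in 1 of 11. Other values kept theirs in every alternative run. The neutrophil share kept its direction in 9 of 9 alternatives, with log2 ratios from 1.14 to 2.32 around the reported 1.74. The sum of Cxcl1, Cxcl2 and Cxcl3 in macrophages, -0.33 as reported, was -0.31 with gate limits multiplied by 2, -0.35 after thinning, -0.34 with every cell counted alike and -0.35 with the median of all genes set to 0. The number of genes called in macrophages, 2 as reported, was 1 with gate limits multiplied by 2, 1 after thinning and 1 at a fold of at least 2, where Csf3r was lost. It stayed at 2 with barcodes of 2 gates counted, but there Csf3r (-0.37) gave way to Cxcr2 (1.47, 0.79 to 2.21). With every cell counted alike or the same mix of subsets no interval was computed, and genes were counted by fold alone. By that looser rule the count was again 2, with Csf3r (-0.48 and -0.54) short of 1.5-fold and Cxcr2 (0.93 and 0.62) past it. As reported, Cxcr2 was at 0.66 (-0.13 to 1.49) on 38 and 22 UMIs, past 1.5-fold but not called because of its interval. Cxcl1 in monocytes, -3.59 as reported, was 0.15 with gate limits divided by 2 and had too few UMIs to be measured with the limits multiplied by 2. The cause was not tested. Leaving out the 34 barcodes seen in both libraries left the neutrophil numbers at 74 and 22. The choice of Spp1 limits, UMIs per cell in neutrophils, shared barcodes and removal of the top cell were chosen after seeing the data. No paired analysis was possible because each group held 1 library. Depth limits Cxcr2 most, with 148 UMIs in UEIS KI and 51 in UEIS LSL.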

Other observations

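T cells, 113 gated in each library, held the partners of these chemokines. Il17a, whose protein induces Cxcr2 ligands in stromal cells, had 262 UMIs in 22 UEIS KI T cells and 59 UMIs in 9 UEIS LSL T cells. Its level was 1028 CPM in UEIS KI and 141 CPM in UEIS LSL (log2 ratio 2.86). The make-up of the gate differed too: Trdc, a gamma delta receptor gene, was in 34 UEIS KI and 16 UEIS LSL T cells, and Trac, an alpha beta one, in 58 and 80. Their part in the Il17a value was not tested. The top 3 cells held 110 of the 262 and 45 of the 59 UMIs. Over all cells Il17a had 299 UMIs (3.45 CPM) in UEIS KI and 144 UMIs (1.79 CPM) in UEIS LSL. The T cell gate held 87.6% and 41.0% of these, macrophages held 21 and 50 UMIs and barcodes of more than 1 gate held 5 and 26. Cxcr6, the Cxcl16 receptor, had a UMI in 54 UEIS KI and 58 UEIS LSL T cells, with levels of 652 CPM and 460 CPM (log2 ratio 0.50). Over all cells Cxcr6 was called lower in UEIS KI, on 269 and 421 UMIs, of which T cells held 61.7% and 45.6%.

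Ackr1, a scavenger of these chemokines best known on venules and red cells, had 6 UMIs in UEIS KI and 35 in UEIS LSL, and 6 and 32 of them were in fibroblast-gated cells. T cells, which should lack Cxcl2, had it at 444 CPM in UEIS KI and 2109.7 CPM in UEIS LSL, and in UEIS LSL 354 of the 881 UMIs were in 3 T cells. Cxcl3 had 4 UMIs in UEIS KI T cells and 95 in UEIS LSL T cells, 69 of the 95 in 3 cells. Pf4 had 55 and 255 UMIs, 164 of the 255 in 3 cells. Over the 3 followed genes measured in T cells the median log2 ratio was -2.25, against 0.06 for all measured genes. Macrophage markers in the T cell gate summed to 1755 CPM in UEIS KI and 2124 CPM in UEIS LSL.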
